A study of Mus musculus with 24 samples.

Results

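Among 21 mouse thymic lymphomas, 8 had raised expression of the genes of chromosome 15, and these 8 tumours are described here against the other 13. They were chosen on measured values: a lymphoma belonged to them when the median log2 ratio of its chromosome 15 genes to the mean of normal thymus was at least 0.3. The ratio was taken on log2(CPM + 0.5), where CPM is a gene's counts when the library's total is scaled to 1000000, over the 357 chromosome 15 genes with a mean of at least 10 CPM. The members were lymphomas 12, 18, 20, 22, 30, 32, 34 and 35, named by their library numbers, of 24 samples in all. Since expression along chromosome 15 chose them, values of chromosome 15 genes are given below as a description with no test, and genes of other chromosomes are reported apart.

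All samples came from female B6C3F1 mice, a hybrid strain, and carried the same treatment label, which gives 4 weekly whole-body exposures to carbon ions, a heavy charged-particle radiation. Each exposure was 1.6 Gy and the mice were 4 to 5 weeks old at the first. The 3 samples of normal thymus carry it too, and their titles bear a 7W mark that the labels do not explain. RNA was taken from cell suspensions and sequenced from its poly(A) fraction. Mutation of Ikzf1, the gene of the lymphoid transcription factor Ikaros, is marked in the headers of the deposited filtered tables for 11 lymphomas and not for the other 10. Separate animals for the lymphomas are not stated in the labels, and p-values therefore cover only the spread among these libraries, which may be technical. All samples share 1 batch date.

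Mouse chromosome 15 carries Myc, a transcription factor that drives growth and ribosome production and is a classic oncogene of T-cell tumours. An extra copy of chromosome 15 is a well-known change in mouse T-cell leukaemias and thymic lymphomas, and a gained chromosome usually raises the RNA of many of its genes by a modest and similar amount. Rad21, a subunit of the cohesin ring that holds sister chromatids together, and Ywhaz, a 14-3-3 adaptor that binds phosphorylated proteins, lie on the same chromosome. DNA copy number was not analysed here.

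Total counts were 22919889 ± 5682958 (mean ± SD, n = 8) in the 8 lymphomas and 23824878 ± 6941666 (n = 13) in the others, a difference within the spread (exact permutation test over samples, two-sided p = 0.7645). The T-cell markers Cd3d, Cd3e, Cd3g, Thy1, Bcl11b and Tcf7 were all at 162 CPM or more in each of the 8, and Lck ranged from 15.4 to 499 CPM. These levels, and all levels below unless named otherwise, are CPM scaled by the trimmed mean of M-values (TMM), which allows for a few genes taking a large share of counts.

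The medians of the 8 lymphomas over chromosome 15 were 0.60 in lymphoma 18, 0.51 in 12, 0.50 in 34, 0.46 in 32, 0.45 in 30, 0.44 in 35, 0.43 in 20 and 0.41 in 22. Just outside the threshold stood lymphoma 9 with 0.28, and the remaining 12 lymphomas ran from -0.14 to 0.12, with thymus libraries from -0.03 to 0.06. The lowest member and lymphoma 9 therefore differed by less than the range within the 8. Chromosome 15 genes took 6.78 to 7.98% of all counts in the 8, 4.90 to 6.22% in the other 13, with lymphoma 9 the highest of these, and 4.84 to 5.00% in thymus. Within each of the 8, between 69.2 and 81.8% of the 357 genes lay above the thymus mean.

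**Figure D1:**
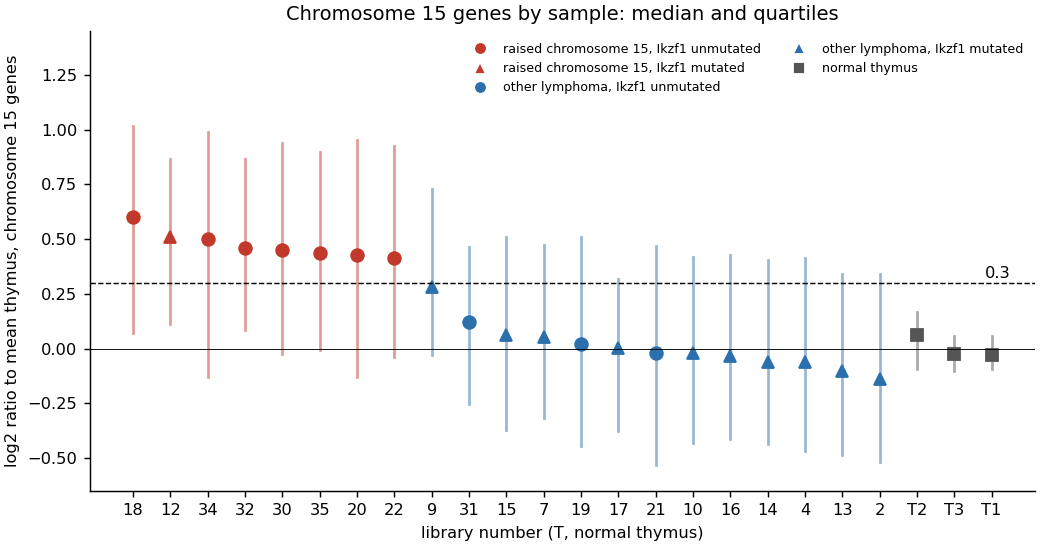
Log2 ratio of chromosome 15 genes to mean thymus in each sample: points are the median over 357 genes and bars span the lower to the upper quartile; the dashed line is the threshold of 0.3. The 8 members lie between 0.41 and 0.60, lymphoma 9 lies at 0.28, and 7 of the 8 members belong to the Ikzf1-unmutated set (circles).

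The raised level spanned most of the chromosome in each of the 8. Of 15 windows of 5 Mb holding at least 5 measured genes, the median of the 8 was above that of the others in 14, and all 8 were above 0 in 12. In 4 windows the lowest of the 8 lay above the highest of the others. The gap between set medians was widest, 0.68, in the window from 40 to 45 Mb, which holds 7 measured genes (GRCm38 positions). It was reversed only from 65 to 70 Mb, again with 7 measured genes, where the 8 had a median of -0.08 and the others of -0.02. The first window, from 5 to 10 Mb with 11 measured genes, set the members apart from each other: lymphomas 12, 18 and 20 had 0.57, 0.32 and 0.32, and the remaining 5 had -0.08 to 0.07. Lymphomas 12, 18 and 32 were above the thymus mean in all 15 windows, and lymphoma 30 in 12. No member had its raised windows on 1 side of Myc alone.

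Lymphoma 9, although outside the members, was also above the thymus mean in all 15 windows, from 0.15 to 0.84. It reached 0.3 in 6 of them, against 9 to 12 in the members and 2 to 5 in the remaining lymphomas.

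**Figure D2:**
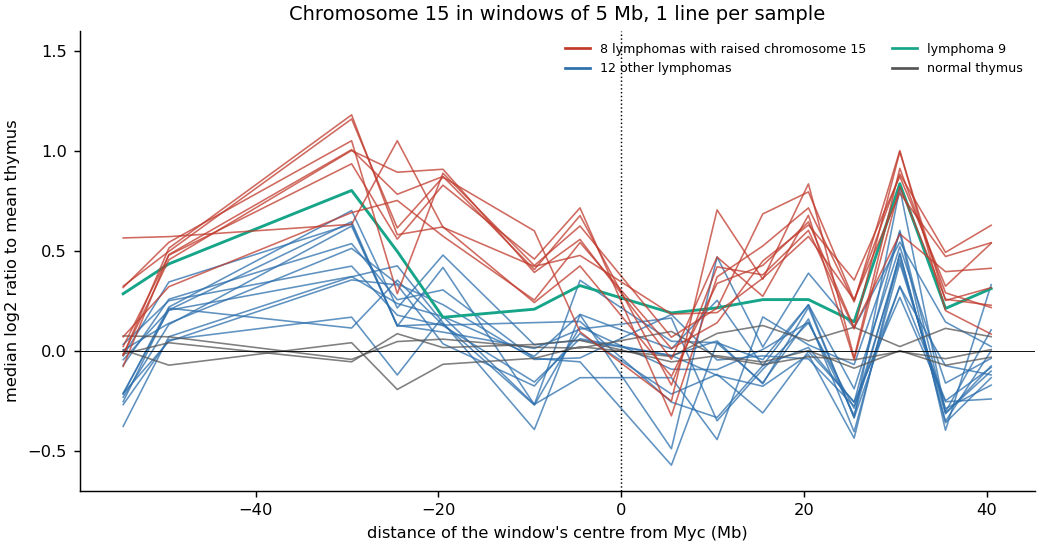
Median log2 ratio to mean thymus in windows of 5 Mb along chromosome 15, with 1 line per sample, plotted against the distance of the window's centre from Myc in Mb. The 8 members lie above most of the other lymphomas on both sides of Myc, apart from the window just after it, where their median is -0.08.

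Myc was not higher in the 8 lymphomas than in the other 13. Its level was 145 to 537 CPM in the 8 lymphomas, with a median of 295, and 149 to 478 CPM in the others, with a median of 309. The ranges overlapped nearly in full, while thymus stood at 75.4 to 94.6 CPM, under every tumour. In lymphomas 12, 18, 20, 22, 30, 32, 34 and 35 it was 194, 180, 537, 298, 293, 327, 316 and 145 CPM, so that lymphoma 20 was the highest of all 21 tumours and lymphoma 35 the lowest. The log2 difference between the means of the sets was -0.22 for Myc (chr15:61985391-61990374), against a median of 0.44 over the 357 genes. Per length, in the authors' TPM, the order of the sets was the same, with 284 ± 120 TPM in the 8 and 329 ± 85.6 in the others. Against mean thymus Myc was higher in each of the 8, by 0.74 to 2.65 on the log2 scale, and in each of the other 13, by 0.85 to 2.47. Of the markers given for these tumours, Myc therefore did not set the 8 apart from the other 13, whereas the averages of Rad21 and Ywhaz were higher in the 8.

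Rad21 (chr15:51962240-51991747) ranged from 557 to 947 CPM in the 8 lymphomas, with a median of 829, and from 395 to 731 CPM in the others, with a median of 524. Thymus held 546 to 752 CPM, so the 8 were high mainly against the other lymphomas and less so against normal thymocytes. In 6 of the 8 Rad21 exceeded the highest of the 13, the exceptions being lymphomas 18 (727 CPM) and 20 (557 CPM). Ywhaz (chr15:36770770-36796929) ranged from 723 to 966 CPM, with a median of 750, against 477 to 729 CPM, with a median of 532, and 586 to 621 in thymus. Its ranges met only because lymphoma 9 reached 729 CPM. The next highest of the others had 565 CPM.

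**Figure D3:**
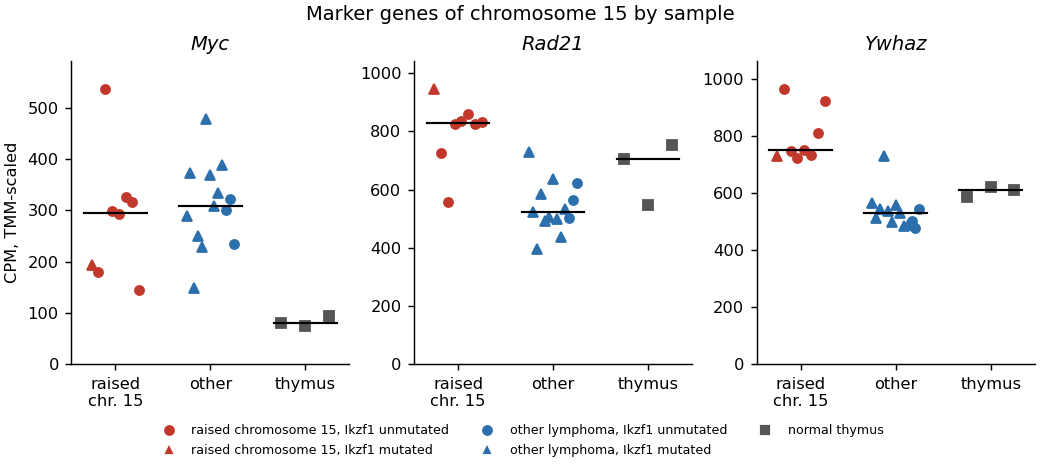
Levels of Myc, Rad21 and Ywhaz in TMM-scaled CPM by sample, with horizontal lines at the group medians and axes starting at 0. Rad21 and Ywhaz medians are higher in the 8 members (829 and 750 CPM) than in the others (524 and 532 CPM), whereas the Myc medians are 295 and 309 CPM.

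Over the 357 genes of chromosome 15 the log2 difference between the sets, taken between their means of log2(CPM + 0.5) with plain CPM, had a median of 0.44 and quartiles of 0.29 and 0.60. It was above 0 in 329 genes and at least 0.3 in 262. For 27 genes (7.56%) every one of the 8 lymphomas lay above every one of the 13, against 0.0% of 8302 genes of other chromosomes with a mean of at least 10 CPM. This follows from the choice of members and supports nothing by itself. The 27 genes were spread from 27.6 to 102 Mb, and their differences were even, between 0.43 and 0.99. Ttll12, a tubulin-tyrosine-ligase-like gene, was at 248 ± 27.1 CPM in the 8 and 121 ± 18.9 in the others. Parvg, an integrin-linked adaptor of blood cells, was at 750 ± 64.5 against 419 ± 74.7 CPM.

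Genes of chromosome structure, repair and division had differences above 0 in 17 of 17 measured genes, with a median of 0.56. Over all 357 genes 92.16% were above 0, with a median of 0.44, so the count is near that share. Rbx1, a RING subunit of cullin ubiquitin ligases, had 147 to 223 CPM in the 8, with a median of 170, and 87.1 to 122 CPM in the others, with a median of 99.6. Rangap1, which activates the Ran GTPase for nuclear transport and spindle assembly, had 439 ± 66.4 CPM against 264 ± 32.3. Neither gene overlapped between the sets. Xrcc6, the Ku70 subunit of DNA end joining, averaged 1573 ± 502 CPM against 1011 ± 399, and its ranges overlapped. Troap, a spindle-associated protein gene, and Dscc1, which loads the replication clamp, differed by 0.67 and 0.60 on the log2 scale. The smallest differences of the list were those of Rrm2b, a p53-induced ribonucleotide reductase subunit (0.16), and Nipbl, the cohesin loader (0.29).

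Genes of translation, RNA processing and protein turnover were higher in 29 of 29 measured genes, against 92.16% over all 357 genes, with a median difference of 0.52. Puf60, a splicing factor, was at 336 to 475 CPM in the 8, with a median of 397, and at 200 to 275 CPM in the others, with a median of 229, with no overlap. Med30 of the Mediator complex, Phf5a of the spliceosome and Polr2f, an RNA polymerase subunit, differed by 0.76, 0.68 and 0.65, and each exceeded the highest of the others in 7 of the 8. Rpl3, a protein of the large ribosomal subunit, differed least, by 0.13, at 680 ± 180 against 586 ± 85.3 CPM.

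Of 18 metabolic genes 18 had a difference above 0, against 92.16% over all 357 genes, with a median of 0.51. Tspo, a mitochondrial outer-membrane protein, led at 100.4 ± 29.9 against 48.9 ± 23.5 CPM. It was followed by Slc38a2, a neutral amino acid carrier (578 ± 124 against 344 ± 71.2 CPM), Sqle of sterol synthesis, Adsl of purine synthesis and Cyc1 of respiratory complex III, which differed by 0.69, 0.63, 0.61 and 0.61. Mpst and Laptm4b had differences of 0.10 and 0.16, and the means of Laptm4b, 56.3 and 56.6 CPM, were level.

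Of 21 transcription and chromatin regulators 17 had a difference above 0, with a median of 0.34, against 92.16% above 0 over all 357 genes. Atf4, the transcription factor of the amino acid and stress response, was at 307 ± 53.3 CPM in the 8 and 183 ± 39.6 in the others. Hsf1, the heat-shock factor, did not overlap, at 106 to 137 CPM with a median of 120, against 59.0 to 97.1 CPM with a median of 79.0. Tef, Brd1 and Cbx7 differed by 0.69, 0.61 and 0.59. Nr4a1, an orphan nuclear receptor induced by T-cell receptor signals, went the other way. It had 0.205 to 52.4 CPM in the 8, with a median of 14.01, and 10.1 to 117 CPM in the others, with a median of 45.2, for a difference of -2.39. Zhx2, a zinc-finger homeobox repressor, was at 9.88 ± 5.48 against 35.1 ± 19.8 CPM (-1.97).

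Receptor and signalling genes varied most, with 19 of 23 above 0, against 92.16% over all 357 genes. They had a median of 0.44 and differences from -1.45 to 3.22. Lgals1, the gene of galectin-1, reached 247 to 2020 CPM in the 8, with a median of 1001, and 44.2 to 516 CPM in the others, with a median of 219. In 7 of the 8 it exceeded all 13. Ly6c1, a surface antigen of the Ly6 cluster, had 23.2 to 767 CPM with a median of 112, against 2.28 to 322 CPM with a median of 5.45. Ly6d and Ly6a differed by 2.31 and 1.60, but the Ly6 genes are close copies of each other, so how reads were split between them is uncertain. Ptk2, the focal adhesion kinase, was at 45.4 ± 25.6 against 18.5 ± 16.3 CPM. Ndrg1, a stress-induced gene, was lower at 34.5 ± 21.0 against 87.1 ± 52.7 CPM (-1.45). Ly6k had a difference of -0.97 with medians of 1.34 and 16.3 CPM, though its means, 84.4 and 84.2 CPM, were level. Il7r, the interleukin-7 receptor subunit that immature thymocytes need for survival, had 35.8 to 453 CPM against 13.3 to 1411 CPM, a full overlap. It was named after its values were seen, as were Ttll12, Parvg and the next pair. Elfn2, a leucine-rich repeat membrane protein gene, was at 325 ± 108 against 86.0 ± 63.9 CPM, with 22.1 CPM in thymus, and Prr5, a subunit of the TORC2 kinase complex, at 31.9 ± 43.9 against 2.79 ± 4.09 CPM.

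Of the 10 lymphomas without an Ikzf1 mutation 7 were among the 8, and of the 11 with one only lymphoma 12 was (Fisher's exact test, two-sided p = 0.007519). The mutated libraries also bear the lower numbers, 2 to 17, and the unmutated ones 18 to 35. What the sets owe to raised chromosome 15 expression, to Ikzf1 status or to library number cannot be told apart in most of what follows. Ikzf1 itself had 743 ± 354 CPM in the 8 and 793 ± 535 in the others (edgeR adjusted p = 0.928).

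Off chromosome 15, the 8 lymphomas were set against the other 13 to ask which genes outside the selecting chromosome differed. Of 11104 genes tested, 162 (1.46%) passed an adjusted p of 0.05 (Benjamini-Hochberg) in the quasi-likelihood test of edgeR, of which 77 (0.693%) rose and 85 (0.765%) fell. Of the 162, 35 had risen and 37 had fallen by a factor of 2 or more. With Ikzf1 status as a term in the model, 3 genes were called, Twist2, Frmd5 and Zcchc14, although all 162 kept their direction. Among the unmutated lymphomas alone, 7 against 3, edgeR called 0 genes, with 646 of 11224 at an unadjusted p under 0.05, and 154 of the 162 kept their direction. Some of the 162 had too few counts to be fitted there, so the rest are not all reversals. Both fits reuse libraries that chose the 162, so a kept direction is no separate support. The count of called genes also moved with single libraries. It was 44 without lymphoma 13, 49 without 2, 58 without 18, 67 without 17, 78 without 30, 81 without 10, 94 without 34, 101 without 35, 102 without 20 and 411 without 12. In all 21 such fits 36 genes were called.

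The 3 genes called with Ikzf1 status in the model averaged under 10 CPM in both sets. Twist2, a basic helix-loop-helix repressor, had 0.0637 to 16.9 CPM in the 8 lymphomas, with a median of 5.19, and 0 to 0.767 CPM in the others, with none in thymus. Its log2 fold change was 5.68 (SE 0.93, edgeR adjusted p = 0.00458), and 6.11 with the term (edgeR adjusted p = 0.0466). Frmd5 averaged 2.48 against 0.237 CPM, and Zcchc14 5.35 against 0.576 CPM, the latter led by a value of 25.4 CPM with a median of 0.768. That value was of lymphoma 12, the only mutated member, which had 12.4 CPM of Twist2 and 4.42 of Frmd5. In the 10 other mutated lymphomas Twist2, Frmd5 and Zcchc14 reached at most 0.767, 0.427 and 1.77 CPM. The mutated side of these 3 calls therefore rests on 1 library.

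Kit, the receptor of stem cell factor and a surface marker of the earliest thymocytes, had the largest rise among genes that averaged at least 10 CPM in the higher set. It stood at 65.3, 96.6, 36.2, 211, 52.8, 196 and 79.6 CPM in lymphomas 18, 20, 22, 30, 32, 34 and 35, but at 1.32 CPM in lymphoma 12. The other 13 ranged from 0.266 to 8.19 CPM, with a median of 1.85, and thymus from 6.71 to 9.13. All 7 unmutated members were thus above every other tumour and above thymus, and the mutated member lay inside the range of the others. In RNA from suspensions of many cells, a different number of cells of a kind and a different amount of RNA per cell cannot be told apart. The 3 unmutated lymphomas outside the 8 had 0.393 to 7.67 CPM. The log2 fold change was 4.83 (SE 0.67, edgeR adjusted p = 0.00146), and over the 21 fits that leave out a lymphoma the adjusted p was at most 0.00408. The fold change was 4.40 with Ikzf1 status in the model (edgeR adjusted p = 0.343) and 5.25 among the unmutated lymphomas (edgeR adjusted p = 0.582), and limma-voom gave an adjusted p of 0.0534. Kit lies on chromosome 5 (chr5:75574916-75656722).

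Sh2d5, an adaptor with an SH2 domain, had the smallest p. It ranged from 3.99 to 30.9 CPM in the 8 lymphomas, with a median of 10.8, and from 0.715 to 3.37 CPM in the others, with a median of 1.42. The sets did not overlap, lymphoma 12 being the lowest of the 8, and thymus lay between the medians at 6.03 to 6.95 CPM. Sh2d5 averaged under 10 CPM over all samples. The share of genes without overlap was counted only above that level, so the separation has no background here. The log2 fold change was 2.97 (SE 0.34, edgeR adjusted p = 0.000183), and 2.66 with Ikzf1 status in the model (edgeR adjusted p = 0.0678). Among the unmutated lymphomas the 7 had 7.499 to 30.9 CPM and the 3 had 0.720 to 3.02 CPM.

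S100a10, the partner of annexin A2, ranged from 1.34 to 50.8 CPM in the 8 lymphomas, with a median of 22.3, and from 0.559 to 5.77 CPM in the others, with a median of 2.79. All tumours were far under the 112 to 180 CPM of thymus. Lymphomas 20 (5.07 CPM) and 34 (1.34 CPM) stayed in the range of the others. Its log2 fold change was 3.20 (SE 0.51, edgeR adjusted p = 0.00313). Serpini1, a serine protease inhibitor, was at 13.04 ± 6.83 against 3.86 ± 2.21 CPM (1.76, SE 0.35, edgeR adjusted p = 0.0217). Of the 12 largest rises, these 4 genes passed in all 21 fits that leave out a lymphoma. Samsn1, an adaptor of lymphocyte receptor signalling, was at 95.5 ± 47.3 against 36.8 ± 18.4 CPM (1.37, SE 0.29, edgeR adjusted p = 0.0286). It passed in 20 of the 21, the exception being lymphoma 2.

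Some of the largest rises were led by 1 tumour, with smaller values above the others in further members. Fgfr1, a fibroblast growth factor receptor, had a median of 2.61 CPM in the 8 and 1.32 in the others, with 131 CPM in lymphoma 20 and at most 5.60 in the other 7. In 4 of the 8 it exceeded all 13 (log2 fold change 3.82, edgeR adjusted p = 0.0217), and without lymphoma 20 its edgeR adjusted p was 0.154. Fstl1, a secreted follistatin-like protein, had medians of 2.84 and 1.32 CPM, with 86.8 CPM in lymphoma 12 and at most 3.78 in the other 7. It too exceeded all 13 in 4 of the 8 (3.27, edgeR adjusted p = 0.0319), and without lymphoma 12 its edgeR adjusted p was 0.258. Cecr2, a bromodomain chromatin factor, had medians of 4.30 and 0.562 CPM, with 66.6 CPM in lymphoma 12 and at most 6.12 elsewhere among the 8. In 4 of the 8 it exceeded the 4.76 CPM of the highest other lymphoma (3.69, edgeR adjusted p = 0.0291), and its edgeR adjusted p without lymphoma 12 was 0.0727. Ckm, the muscle creatine kinase, reached 168 CPM in lymphoma 20 with a median of 2.17 over the 8. It passed in 8 of the 21 fits, as did Esm1 in 7, Morc1 in 5 and Dkkl1 in 10. Esm1, a secreted proteoglycan, was at 44.0 ± 32.96 against 11.96 ± 6.44 CPM, with 1.85 in thymus.

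Abi2, an Abl interactor of the actin-regulating WAVE complex, had the firmest fall. It ranged from 6.49 to 24.8 CPM in the 8 lymphomas, with a median of 17.3, and from 29.2 to 96.1 CPM in the others, with a median of 66.7. The sets did not overlap, and lymphoma 12, at 17.1 CPM, lay in the middle of the 8. Thymus had 22.7 to 31.8 CPM. The log2 fold change was -1.98 (SE 0.26, edgeR adjusted p = 0.00095), and -1.62 with Ikzf1 status in the model (edgeR adjusted p = 0.0585). Among 8302 genes of other chromosomes with a mean of at least 10 CPM, 8 (0.0964%) lay wholly lower in the 8 lymphomas, Abi2 among them. Cmip (83.6 ± 13.3 against 121 ± 12.6 CPM), Arhgef7, an exchange factor for Rac and Cdc42 (62.1 ± 4.93 against 80.7 ± 8.92 CPM), and Plxnb1, a semaphorin receptor (8.87 ± 4.88 against 20.9 ± 3.83 CPM), were others.

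Egr1, an immediate-early transcription factor induced by T-cell receptor signals, ranged from 1.39 to 29.3 CPM in the 8 lymphomas, with a median of 10.2, and from 18.6 to 164 CPM in the others, with a median of 93.7. Thymus had 175 to 236 CPM. In 6 of the 8 it was under the lowest of the others. Its log2 fold change was -2.73 (SE 0.54, edgeR adjusted p = 0.0204). Nab2 and Nab1, which encode co-repressors that bind Egr proteins, fell as well. Nab2 was at 15.3 ± 9.86 against 66.3 ± 41.2 CPM (edgeR adjusted p = 0.0291) and Nab1 at 56.4 ± 14.8 against 87.8 ± 15.3 CPM (edgeR adjusted p = 0.0299). Nab2 lost its call without lymphoma 13 or 30 (edgeR adjusted p = 0.0524 and 0.0507), and Nab1 held it in 14 of the 21 fits. The Egr1 fold change was -2.01 with Ikzf1 status in the model (edgeR adjusted p = 0.303). The 3 unmutated lymphomas outside the 8 had 33.8 to 57.2 CPM, and 7 of the 10 mutated ones outside it had more than that.

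**Figure D4:**
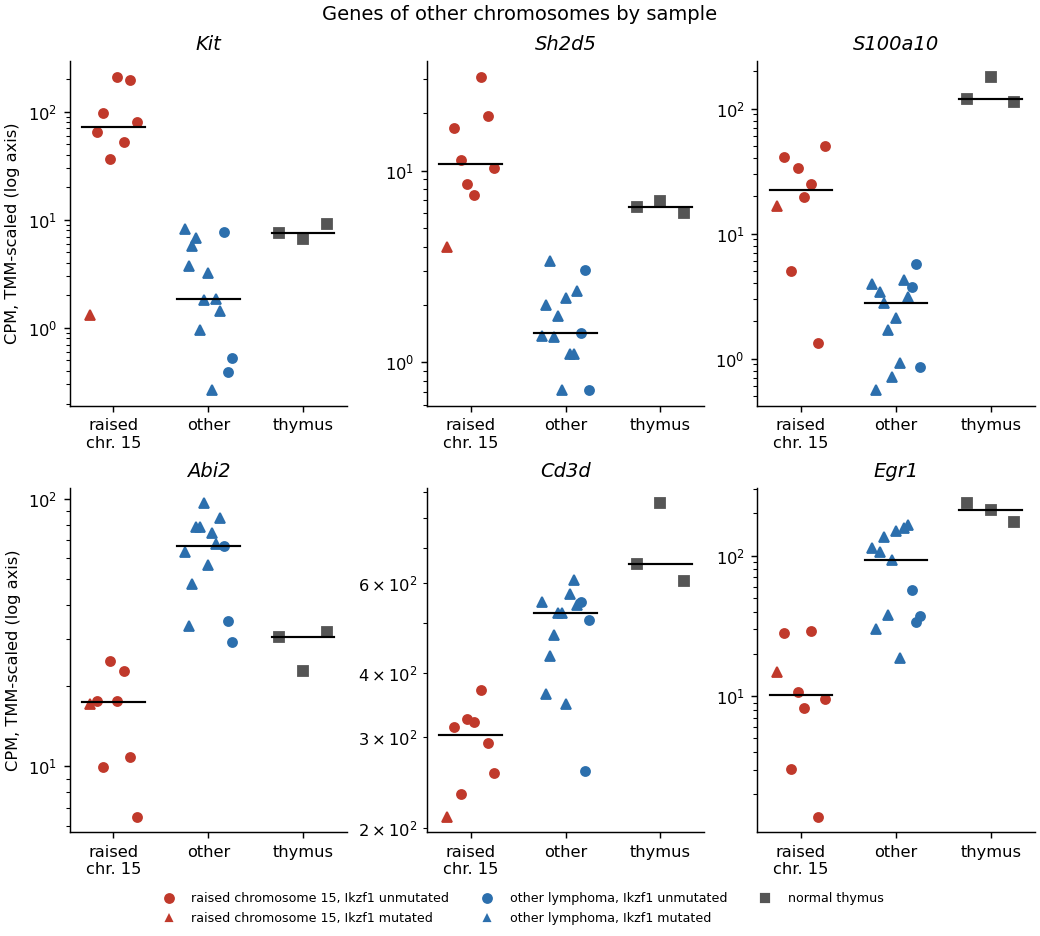
Levels in TMM-scaled CPM on log axes for 6 genes off chromosome 15, by sample, with lines at the group medians; triangles are Ikzf1-mutated lymphomas. Kit, Sh2d5 and S100a10 are higher in the 8 members and Abi2, Cd3d and Egr1 lower, and the only mutated member, lymphoma 12, lies among the others for Kit at 1.32 CPM.

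Ybx3, a cold-shock-domain RNA-binding protein, was at 0.873 to 26.3 CPM in the 8, with a median of 8.26, and at 0.393 to 306 CPM in the others, with a median of 135. Lymphoma 31 was the lowest of all tumours, so the ranges overlapped although most of the 13 were far higher (-3.75, SE 0.76, edgeR adjusted p = 0.0217). Susd4, a complement regulator, had 6 counts over the 8 libraries and 12048 over the 13, where it ranged from 0 to 166 CPM (edgeR adjusted p = 0.0168). Both passed in all 21 fits. Clvs1 and Iltifb were likewise near 0 in the 8, with 11 and 14 counts, and ranged from 0 to 72.8 and 0 to 34.4 CPM in the others. Iltifb is a near copy of the interleukin-22 gene, so its reads may be shared. Ppic, Ctnnd1, Sorbs3, Ddr1 and Zswim6 completed the 12 largest falls, with log2 fold changes from -3.57 to -1.50. None of the 24 genes named as largest rises or falls passed with Ikzf1 status in the model or among the unmutated lymphomas, where 3 of the falls had too few counts to be fitted. In the fit of all 21, limma-voom called 6 of the 12 rises and 3 of the 12 falls, and DESeq2 10 and 12.

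T-cell receptor subunits and their signalling proteins were lower where they passed. Of 22 tested in edgeR, 3 fell, against 0.765% called lower over all genes, none rose and 19 did not pass. At an unadjusted p under 0.05 there were 9, and DESeq2 called 7 and limma-voom 5. The list had a median log2 fold change of -0.35 against -0.02 over all tested genes. Cd3d (chr9:44981786-44987339) was at 210 to 370 CPM in the 8, with a median of 303, against 258 to 606 CPM with a median of 522, and 603 to 856 CPM in thymus. In 3 of the 8 it was under every other lymphoma, and lymphoma 21 was the lowest of the 13. Its fold change was -0.73 (SE 0.14, edgeR adjusted p = 0.0168). Cd3g, its neighbour on chromosome 9, was at 314 ± 43.8 against 481 ± 130 CPM (-0.62, edgeR adjusted p = 0.0394), and the kinase Zap70 at 232 ± 40.2 against 305 ± 38.8 CPM (-0.40, edgeR adjusted p = 0.0477). Cd3g passed in 8 and Zap70 in 4 of the 21 fits.

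Among 12 genes of early double-negative thymocytes, the stage before T-cell receptor expression, Kit and Lyl1 rose in edgeR, against 0.693% called higher over all genes, none fell and 10 did not pass (median 0.43). At an unadjusted p under 0.05 there were 3, and DESeq2 called 2 and limma-voom 1. Lyl1, a basic helix-loop-helix factor of immature progenitors, had 3.24 to 19.2 CPM in the 8, with a median of 6.33, and 0.798 to 6.74 CPM in the others, with a median of 1.54 (1.73, SE 0.42, edgeR adjusted p = 0.0406). It passed in 9 of the 21 fits. None of 18 double-positive or 17 mature thymocyte genes passed in edgeR, with 4 and 2 at an unadjusted p under 0.05, and DESeq2 called 2 and 0 of them and limma-voom 0 of either. Of 21 T-lineage transcription factors only Lyl1 passed in edgeR, where 9 had an unadjusted p under 0.05, and DESeq2 called 5 and limma-voom 3. Among 17 immediate-early genes Egr1 alone passed in edgeR, where 5 had an unadjusted p under 0.05, and DESeq2 called 3 and limma-voom 1. A total of 3 of the 17 had a log2 fold change above 0 (median -0.40). Zfp36, which speeds the decay of cytokine messages, came next at 19.8 ± 9.83 against 45.6 ± 18.1 CPM (edgeR adjusted p = 0.0543).

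Partners of the chromosome 15 markers on other chromosomes were not called. None of 13 cohesin genes passed in edgeR, DESeq2 or limma-voom, none had an unadjusted p under 0.05, and their median was 0.00. Wapl, the cohesin release factor, was at 343 ± 106 against 289 ± 20.4 CPM (edgeR adjusted p = 0.304). None of 6 other 14-3-3 genes passed, with 1 at an unadjusted p under 0.05 and none by the other tools, and Ywhab was at 569 ± 87.3 against 478 ± 81.6 CPM (edgeR adjusted p = 0.27). None of 11 genes of the Max network, the partners and antagonists of Myc, passed in any of the 3 tools (median -0.12).

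Of 26 ribosome biogenesis genes known as Myc targets, 0 passed in edgeR, 4 had an unadjusted p under 0.05, DESeq2 called 1 and limma-voom 0. Their median log2 fold change was 0.18, and 25 of the 26 were above 0, against 5275 of 11104 over all tested genes. Such a count was not particular to this list. Above 0 were 28 of 29 proteasome, 18 of 19 chaperone and 22 of 24 mitosis genes. For glycolysis and hypoxia it was 7 of 22, and for the interferon response 4 of 25. Gnl3, the gene of the nucleolar protein nucleostemin on chromosome 14, was at 270 ± 80.1 against 192 ± 43.9 CPM (edgeR adjusted p = 0.108). Of 22 further Myc targets 0 passed, 5 had an unadjusted p under 0.05, and DESeq2 called 1 and limma-voom 0, with a median of 0.18. Prmt5, an arginine methyltransferase gene also on chromosome 14, was at 279 ± 51.0 against 213 ± 32.5 CPM (edgeR adjusted p = 0.0591). For 24 mitosis genes edgeR called 0, with 3 at an unadjusted p under 0.05, DESeq2 2 and limma-voom 0 (median 0.14), with Aurka at 127 ± 28.7 against 91.2 ± 18.9 CPM. Of 29 DNA replication genes 0 passed in any tool and 2 had an unadjusted p under 0.05 (median 0.12).

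Notch receptors and targets (16 tested), genes of the interleukin-7 and STAT5 pathway (15), p53 targets (19), tumour suppressors and oncogenes of mouse thymic lymphoma (22) and the Bcl2 family (15) had 0 calls in edgeR and in limma-voom. At an unadjusted p under 0.05 they had 1, 2, 3, 4 and 1 genes, and DESeq2 called 0, 0, 2, 1 and 1. Notch1 averaged 744 against 1342 CPM and Dtx1, a Notch target, 189 against 439 CPM, without passing. Of 29 proteasome genes 2 rose in edgeR, against 0.693% over all genes, with 9 at an unadjusted p under 0.05, 5 called by DESeq2 and 2 by limma-voom. They were Psmd6 (168 ± 17.3 against 129 ± 15.6 CPM) and Psmc6 (221 ± 30.2 against 170 ± 25.1 CPM), and both lie on chromosome 14. For oxidative phosphorylation (23 tested), glycolysis and hypoxia (22), the interferon response (25), cholesterol synthesis (20), chaperones (19) and polycomb genes (11) edgeR called 0 genes. They had 3, 3, 2, 0, 2 and 0 at an unadjusted p under 0.05, DESeq2 called 0, 1, 1, 0, 0 and 0, and limma-voom called 1 interferon gene.

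Chromosome 14 was raised in 4 of the 8. Its median log2 ratio to thymus was 0.51 in lymphoma 12, 0.50 in 30, 0.30 in 20 and 0.29 in 32, against -0.11 to 0.05 in lymphomas 18, 22, 34 and 35 and -0.02 to 0.13 in the other 13. No lymphoma outside the 8 reached the lowest of these 4. As a difference between the sets it was 0.13 and did not pass (exact permutation test over samples, two-sided p = 0.1088, adjusted p = 0.159 over 19 chromosomes). Of 400 chromosome 14 genes tested, 16 (4.0%) rose, against 0.693% over all genes, and Sorbs3 fell. Rgcc, a regulator of the cell cycle, had the smallest p (log2 fold change 1.08, edgeR adjusted p = 0.00161), followed by the ubiquitin-like modifier Nedd8 (0.54, edgeR adjusted p = 0.00277) and Sucla2 of the citric acid cycle (0.48, edgeR adjusted p = 0.0158). In a fit without the 4 lymphomas, chosen after their values were seen, these 3 and Dnajc15 passed, and all 16 were above 0. Rgcc was as high in the 4 members without raised chromosome 14, at 134 to 264 CPM, as in those with it, at 142 to 222 CPM, with 56.1 to 135 CPM in the 13.

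Further members departed on other chromosomes. Lymphoma 35 had a median of 0.37 on chromosome 18, lymphoma 34 of 0.24 on chromosome 16, and lymphoma 20 of 0.22 on chromosome 10 and 0.18 on chromosome 7. Low medians occurred in members too, on plain CPM. Among them were -0.28 in lymphoma 32 on chromosome 7, and -0.26 in lymphoma 18 on chromosome 16. Lymphoma 20 had -0.26 on chromosome 17, and lymphoma 35 had -0.24 on chromosome 13. The lowest outside the 8 was -0.15, in lymphoma 2 on chromosome 19. Outside the 8, lymphoma 7 had 0.45 on chromosome 19, lymphoma 16 had 0.36 on chromosome 2, and lymphomas 10 and 31 had 0.26 and 0.22 on chromosome 12. Lymphoma 21 had 0.25 on chromosome 16, above lymphoma 34, and lymphoma 2 had 0.20 on chromosome X, where lymphoma 32 of the 8 had 0.22. With plain CPM the medians of 9 of 19 chromosomes passed as lower in the 8, with chromosome 3 first (difference -0.13, adjusted p = 0.000187 by the exact permutation test over samples), but with TMM-scaled CPM 0 of 19 passed. TMM scaling raised the median over all genes by 0.06 in the 8 and by 0.01 in the others, so the lower medians moved with the scaling. Among the unmutated lymphomas 0 of 19 passed, where 7 against 3 samples allow no p under 0.0167 before adjustment.

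**Figure D5:**
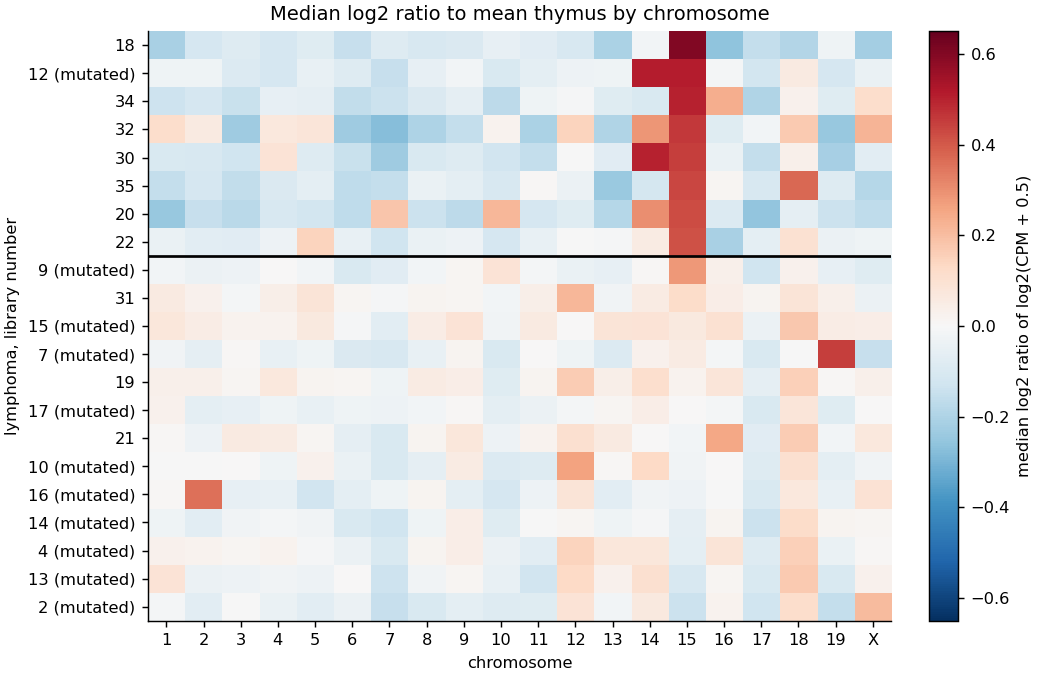
Median log2 ratio to mean thymus for each chromosome (columns) and lymphoma (rows, the 8 members above the black line), as colour from blue (lower) to red (higher), on log2(CPM + 0.5). Chromosome 15 is red in all 8 members and paler in lymphoma 9 (0.28), and chromosome 14 is red in lymphomas 12, 20, 30 and 32.

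Markers of other cell types were checked because the suspensions could hold them. Of 9 lists none had a call in edgeR or limma-voom, and DESeq2 called 3 of 9 B-cell markers and 1 of 14 macrophage markers. Summed macrophage and monocyte markers ran from 424 to 1058 CPM in the 8, from 339 to 1286 in the others and from 160 to 231 in thymus. B-cell markers ran from 24.0 to 341 CPM in the 8 and 8.38 to 337 in the others, with 9 of 9 fold changes above 0 (median 1.06). Fibroblast markers ran from 156 to 397 and 61.4 to 1303 CPM, dendritic cell markers from 54.2 to 692 and 23.4 to 592, and natural killer and cytotoxic markers from 282 to 2766 and 105 to 1412. The dendritic sum was mostly Cd74, at 40.7 to 662 and 20.8 to 535 CPM. The natural killer sum was mostly Gzma, at 260 to 2704 and 88.5 to 1382 CPM, while Nkg7 reached at most 10.5 and 8.89 CPM. Thymic epithelial markers ran from 130 to 460 and 52.0 to 378 CPM, neutrophil markers from 7.71 to 25.9 and 1.77 to 89.8, and erythroid markers from 11.9 to 185 and 6.99 to 345. The thymic epithelial sum was mostly Ctsl, at 102 to 455 and 44.0 to 366 CPM, while Prss16 reached at most 0.351 and 0.256 CPM. Such sums therefore follow single genes and are not levels of a cell type. Of 10 endothelial markers only Pecam1, which blood cells also express, had enough counts to be tested. Cldn5 was at 0 in every library, thymus included, and so says nothing of such cells. Psmb11 of the thymic cortex was at no more than 0.0425 CPM in the 8. The part of such cells in the differences above was not tested.

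The gene Rpl37rt on chromosome 5, a retrotransposed copy of the chromosome 15 gene Rpl37, was called higher off chromosome 15, at 162 ± 37.6 against 103 ± 18.7 CPM. Reads of the parent gene may have been counted for it, so it is uncertain whether it differs by itself. It was named after its values were seen.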

How the data were processed

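Poly(A) RNA of 21 thymic lymphomas and 3 thymus samples was sequenced. The deposited counts are whole reads per gene, and the authors also deposited TPM. The submitters' processing notes name cutadapt 1.9.1, HISAT2 2.0.1, HTSeq 0.6.1, SAMtools, edgeR and the build GRCm38.p6. With the counting strand not given in the sources used here, overlapping and antisense genes are uncertain. The members and gene lists were chosen with earlier results of these data known.

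Genes were placed by symbol in GENCODE M21, or RefSeq GRCm38.p6 where it had none, which placed 20876 of 21878 genes with 97.957% of counts. The 8 lymphomas were compared with 13 by edgeR's quasi-likelihood test (edgeR 4.0.16, R 4.3.3; TMM, filterByExpr), with Benjamini-Hochberg adjustment over 11104 placed genes off chromosome 15. Chromosome medians used exact permutation tests over samples. Alternatives were DESeq2 1.42.0, limma-voom (limma 3.58.1), other scalings and filters, a term for Ikzf1 mutation, unmutated lymphomas alone, and leaving out lymphomas. Total counts per lymphoma ran from 14998988 to 36559710, and with this spread small changes of low genes are not detectable.

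In simulated counts of 11053 genes for this comparison, with 197 changed, 61.2% of 2-fold and 87.9% of 4-fold changes were found, and 7.5% of calls were unchanged genes. The counts were drawn independently for each library, with no effect of Ikzf1 status and no shift of a whole chromosome. The 7.5% is therefore not the error rate of the calls in the real data.

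Genes were named by rule: the 12 largest called rises and the 12 largest called falls whose higher group averaged 10 CPM or more, leaving out unnamed models and receptor segments. The rule added up to 6 genes of smallest p on chromosomes past the threshold, and up to 4 called genes per list or 2 where none passed. On chromosome 15 it took Myc, Rad21 and Ywhaz and the 5 largest and 2 smallest differences per list. A gene that this rule names is not reported here. The chromosome 14 genes other than Psmd6, Psmc6, Sorbs3, Gnl3, Prmt5 and Wapl, and those marked in the text, were named after their values were seen.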

Additional observations from a re-analysis of the deposited data

Results flagged for a closer look

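Of 48 groups of 8 values examined, 8 held a lymphoma far from the other 7. Chance gives about 1 in 20 for unselected values. Some groups were genes named for large fold changes, which 1 tumour can lead, so no excess over chance can be read from this count. The chromosome 7 median of lymphoma 20 was 0.178 with the next at -0.08, and the chromosome 12 median of lymphoma 32 was 0.147 with the next at -0.00. Kit in lymphoma 12 stood at 1.32 CPM below a next value of 36.2. Fgfr1 in lymphoma 20 stood at 131 CPM over 5.60, and Fstl1 in lymphoma 12 at 86.8 CPM over 3.78. Among genes that fell, Iltifb in lymphoma 32 stood at 0.828 CPM over 0.0573, Ctnnd1 in lymphoma 20 at 9.75 CPM over 3.31, and Sorbs3 in lymphoma 12 at 4.12 CPM over 2.07.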

How the results depend on the processing

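The count of 162 called genes off chromosome 15 became 644 with DESeq2, 318 with adjustment over all fitted genes together with those of chromosome 15, 3 with Ikzf1 status as a term and 0 among unmutated lymphomas, where 646 had an unadjusted p under 0.05. It was 289 without the 4 lymphomas of raised chromosome 14, an alternative chosen after seeing the data, and 44 to 411 when 1 lymphoma was left out. limma-voom gave 195, relative log expression scaling 175, TMM without chromosome 15 genes 177 and no low-count filter 148. The chromosomes whose medians passed numbered 9, but 0 with TMM-scaled CPM and 0 among unmutated lymphomas, and 6 to 9 with 1 lymphoma left out. They numbered 10 over genes with a mean of at least 1 CPM and 11 on log2(TPM + 0.5). The chromosome 14 difference stayed between 0.08 and 0.17 with 1 lymphoma left out, without passing. The cause of these shifts was not tested. Over the named genes, no alternative reversed a direction, and in 264 instances outside the left-out lymphomas a call was lost. Another 41 instances were graded stronger and 1150 the same. The 1150 include genes that the main fit did not call, so they are not a count of kept calls. The alternatives share libraries with the main fit, so kept directions are no separate support. No paired analysis was possible because each lymphoma bears its own library number. Depth limits what low genes can show, and 8 against 13 tumours, of which 7 against 3 unmutated, limit the rest.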
